A study of Mus musculus with 6 samples.

Results

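The insulin-like growth factor (IGF) family was followed through its 10 members: the ligands Igf1 and Igf2, the receptors Igf1r and Igf2r, and the binding proteins Igfbp2 to Igfbp7. A member was every probe set whose only gene symbol in the array annotation was one of these names, which gave 28 of the 45037 probe sets tested and 10 of the 18193 genes. RNA of the whole pancreas, taken at postnatal day 15 from mice of the NMRI background, was hybridised to Affymetrix 3′ arrays, 1 per sample. Prox1-OE mice (n = 3) carried Jojo-Prox1 together with Ngn3-cre, and controls (n = 3) carried Ngn3-cre alone, so both groups had the Cre. Ngn3-cre acts in the progenitors of endocrine cells, whereas most of the pancreas is exocrine tissue, so each value averages islets with acinar, ductal, stromal, vascular and immune cells. No source used here names the promoter behind Jojo-Prox1, and the labels do not tie samples to animals or litters; p-values thus cover no more than the spread among these arrays, which may be technical.

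IGF-I and IGF-II are secreted peptides related to insulin that promote growth and survival by activating the IGF-I receptor, a tyrosine kinase. The IGF-II receptor, also the mannose 6-phosphate receptor, takes IGF-II up for degradation. Binding proteins hold the peptides in blood and tissue, extend their life and limit or direct their access to the receptor. In the pancreas, stromal and vascular cells are known sources of several of these proteins, and beta cells respond to IGF-I through the same kinases as to insulin.

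No member passed the threshold. Of all 45037 probe sets, 5 (0.0111%) reached a limma adjusted p under 0.05, and 0 of the 28 member probe sets did, with a smallest adjusted p of 0.801. At an unadjusted limma p under 0.05, 3 of the 28 stood out (10.7%), against 6.15% of all probe sets: 2 were higher (background 2.65%) and 1 lower (background 3.5%). They were 1 probe set of Igfbp4 and 2 of Igfbp7, and the 2 of Igfbp7 differed in opposite directions. Without Prox1-OE replicate 1, 0 of the 28 had such a p, against 4.73% of all probe sets. The groups did not overlap for 3 of the 28 (10.7%), against 11.4% of all probe sets. Of the 28, 15 had a positive difference (53.6%), against 45.1% of all probe sets. The median log2 difference, Prox1-OE minus control, was 0.01 for the 28 and -0.02 for all probe sets, and the members ran from -0.25 to 0.41. Of the 28, 24 lay above the median of all probe sets, and the 4 below it are called dim.

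The arrays as a whole were alike, with pairwise correlations from 0.988 to 0.994. Along the first principal component, which held 31.4% of the variance, Prox1-OE replicate 1 scored -42.3 and the other 5 arrays -6.15 to 21.1. That array was also the highest of the 6 for a list of 15 mesenchyme and fibroblast genes. Probe sets of Prox1 did not separate the groups: the brightest read 5.20 ± 0.19 in Prox1-OE and 5.14 ± 0.41 in control (SD, n = 3 each), and a 3′ probe set may lie outside the transcript of a transgene, so this does not check the labels. The tissue label held: all 7 measured acinar markers were above the dim limit. Of 9 measured beta cell markers, 9 had a negative difference, 6 an unadjusted limma p under 0.05 (66.7%) and 0 passed. Of all genes by their brightest probe set, 46.2% had a positive difference, 6.72% had such a p and 0.022% passed. RNA integrity, read as the excess of 3′ over 5′ control signal on the log2 scale, averaged 0.933 ± 0.012 for Prox1-OE and 0.947 ± 0.037 for control (SD, n = 3 each). An exact permutation test of this value, two-sided, gave p = 0.7, and the design allows none under 0.1.

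**Figure D1:**
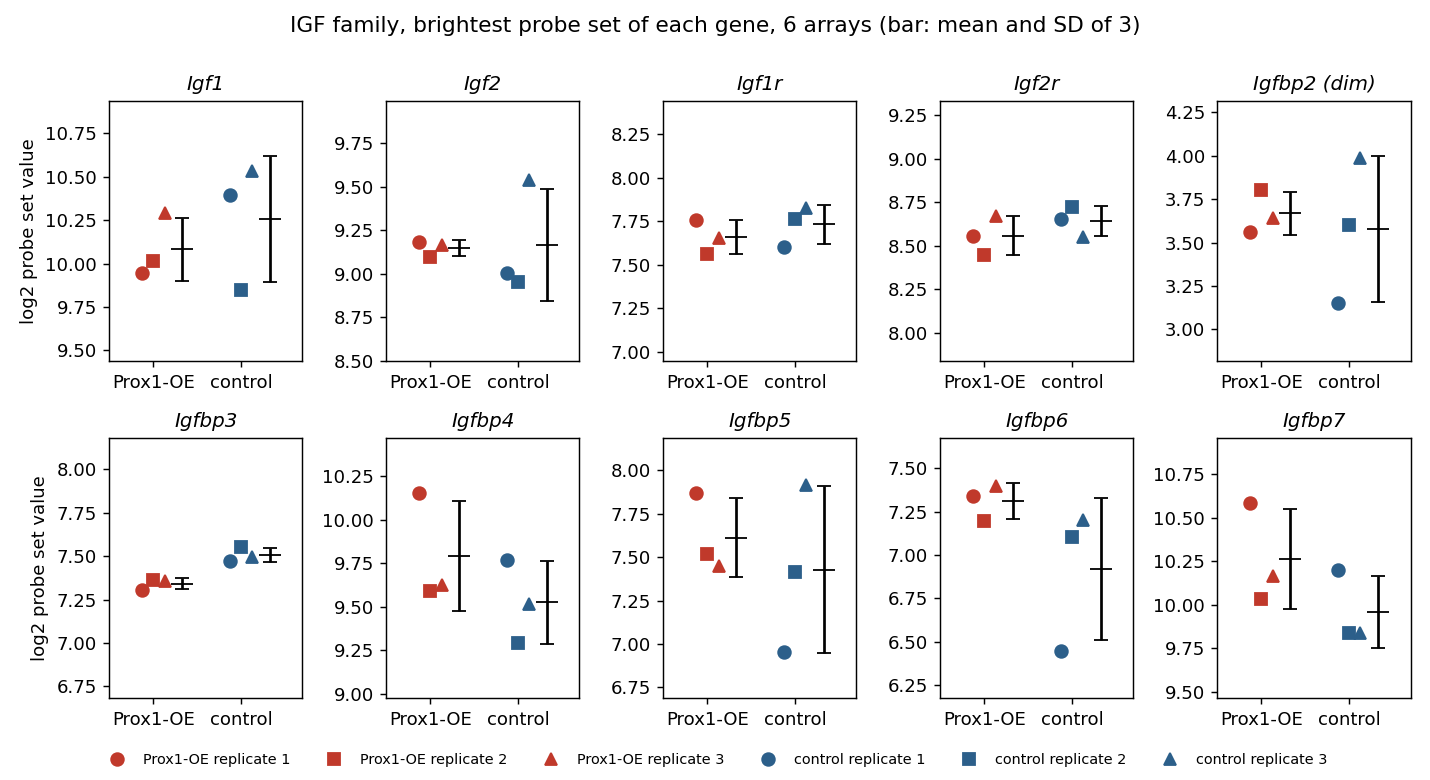
Log2 values of the brightest probe set of each of the 10 IGF family genes on the 6 arrays, with Prox1-OE (red) left of control (blue), symbols for replicates, and bars for the mean and SD of 3 arrays. Every panel spans the same range of log2 units; Igfbp3 is the only gene of the 10 whose groups do not overlap, and control replicate 1 is the lowest array for Igfbp2, Igfbp5 and Igfbp6.

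The ligands did not differ beyond their spread. Igf1, whose product is the main growth mediator of growth hormone after birth, read 9.94, 10.02 and 10.29 on the Prox1-OE arrays, against 10.40, 9.85 and 10.53 on the control arrays. The control arrays span the Prox1-OE range, with control replicate 2 lowest and control replicates 1 and 3 highest of the 6. The log2 difference was -0.17 ± 0.18 (SE, limma adjusted p = 0.898), with a 95% interval from -0.58 to 0.23. Its size depended on single arrays: leaving out the first replicate of either group gave -0.11, leaving out Prox1-OE replicate 3 gave -0.28, and leaving out control replicate 2 or 3 gave -0.38 or -0.04. The other 3 Igf1 probe sets differed by -0.14, -0.08 and -0.04, but the last 2 turned positive, up to 0.01 and 0.12, when some single arrays were left out, among them Prox1-OE replicate 1 and control replicate 3.

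Igf2, the fetal growth factor expressed from the paternal allele in most tissues, read 9.18, 9.10 and 9.17 on the Prox1-OE arrays, against 9.003, 8.96 and 9.54 on the control arrays. The Prox1-OE values lay close together inside the control range, which control replicate 3 widened at the top. The difference was -0.02 ± 0.15 (SE, limma adjusted p = 0.993; 95% interval -0.36 to 0.33), and its sign was not stable: it was 0.17 without control replicate 3 and just above 0 when each array was centred on its median. A further, dim probe set of Igf2 differed by 0.18. In RefSeq (GRCm38.p6) the next protein-coding gene after Igf2 is the insulin gene Ins2, which read 12.84 ± 0.17 in Prox1-OE and 13.03 ± 0.41 in control (SD, n = 3 each).

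The receptors varied little over the arrays. Igf1r, the tyrosine kinase receptor of both ligands, read 7.76, 7.56 and 7.65 on the Prox1-OE arrays, against 7.60, 7.76 and 7.83 on the control arrays, which overlap almost fully. Its difference was -0.07 ± 0.10 (SE, limma adjusted p = 0.929), with a 95% interval of -0.30 to 0.16. This interval is for the whole pancreas and does not bound a change confined to endocrine cells. Of the other 4 Igf1r probe sets, of which 2 were dim, differences ran from -0.15 to 0.01. Igf2r, the receptor that clears IGF-II, read 8.56, 8.45 and 8.67 on the Prox1-OE arrays, against 8.65, 8.72 and 8.55 on the control arrays. The groups overlapped, with a difference of -0.08 ± 0.10 (SE, limma adjusted p = 0.914), and a further probe set differed by 0.03.

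Among the binding proteins, Igfbp3 was the one whose brightest probe set separated the groups. Igfbp3, the main carrier of IGFs in blood, read 7.31, 7.36 and 7.35 on the Prox1-OE arrays, against 7.47, 7.55 and 7.49 on the control arrays. All 3 Prox1-OE arrays were lower than all 3 controls. Groups were apart, in either direction, for 12.1% of genes read by their brightest probe set. The difference of -0.17 ± 0.08 (SE) did not pass (limma adjusted p = 0.813), and it ran from -0.18 to -0.14 when any 1 array was left out. The other Igfbp3 probe set did not share it, at 6.63, 6.70 and 6.65 in Prox1-OE against 6.72, 6.64 and 6.55 in control, a difference of 0.02. The suffix of the brighter one, _s_at, marks a probe set that can match transcripts of more than 1 gene. The brightest Igfbp5 probe set and the Igfbp4 probe set with the smallest p, both described below, have the same suffix.

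Igfbp2 was dim on every array. Igfbp2, a carrier abundant in fetal tissue, read 3.56, 3.80 and 3.64 on the Prox1-OE arrays, against 3.15, 3.60 and 3.99 on the control arrays. Its difference of 0.09 ± 0.19 (SE, limma adjusted p = 0.958) turned to -0.12 without control replicate 1, and both values are of a probe set near background. Igfbp5, its neighbour on chromosome 1 in RefSeq and a binding protein that also attaches to matrix, read 7.87, 7.52 and 7.45 on the Prox1-OE arrays, against 6.96, 7.41 and 7.92 on the control arrays. The control arrays spread over almost 1 log2 unit and enclose the Prox1-OE values. The difference of 0.18 ± 0.22 (SE, limma adjusted p = 0.918) was 0.05 without Prox1-OE replicate 1, -0.05 without control replicate 1 and 0.43 without control replicate 3, and a second Igfbp5 probe set differed by -0.14.

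Igfbp6, which prefers IGF-II to IGF-I, had the largest difference of the 10 brightest probe sets. It read 7.34, 7.20 and 7.40 on the Prox1-OE arrays, against 6.45, 7.10 and 7.20 on the control arrays. Control replicate 3 reached the level of Prox1-OE replicate 2, and control replicate 1 lay apart below the others. The difference was 0.39 ± 0.18 (SE, 1.31-fold, limma adjusted p = 0.810), with a 95% interval from -0.02 to 0.81. Without control replicate 1 it was 0.16.

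Igfbp4 and Igfbp7 followed 1 pattern over the arrays, with the highest value on Prox1-OE replicate 1 and a low one on control replicate 2. Igfbp4, a binding protein that restrains IGF action until a protease cleaves it, read 10.15, 9.59 and 9.63 on the Prox1-OE arrays, against 9.77, 9.29 and 9.51 on the control arrays. Control replicate 1 exceeded both Prox1-OE replicates 2 and 3, so the groups overlapped. The difference was 0.27 ± 0.18 (SE, limma adjusted p = 0.841), and 0.08 without Prox1-OE replicate 1. Igfbp7, which binds IGFs weakly and is deposited around blood vessels, read 10.59, 10.03 and 10.17 on the Prox1-OE arrays, against 10.20, 9.84 and 9.84 on the control arrays. Here too control replicate 1 lay above Prox1-OE replicates 2 and 3. The difference was 0.30 ± 0.16 (SE, limma adjusted p = 0.816), and 0.14 without Prox1-OE replicate 1.

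**Figure D2:**
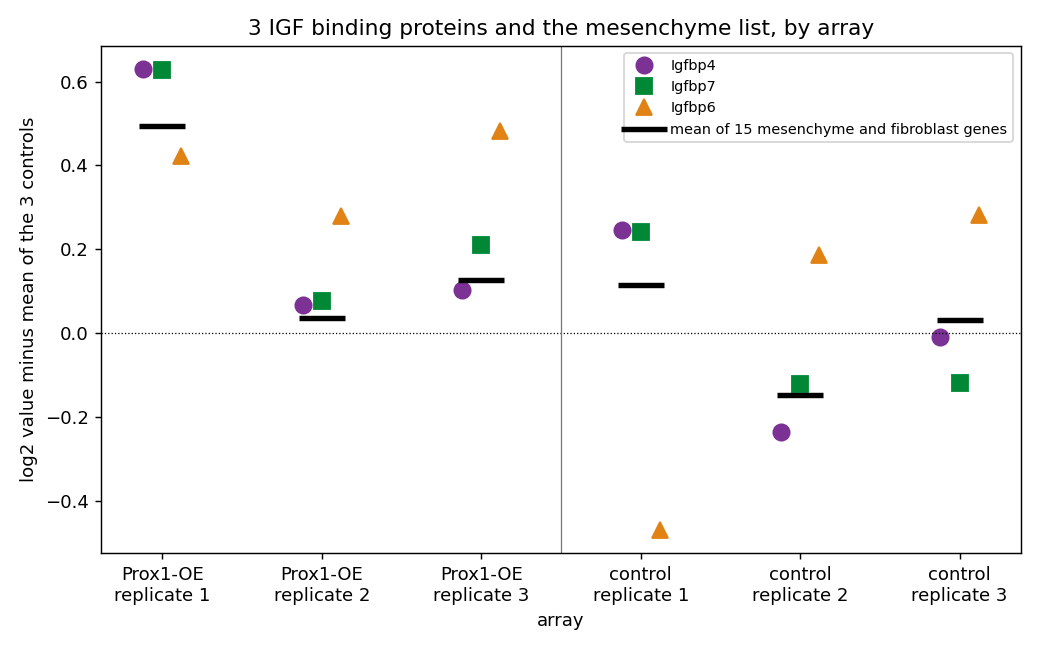
Log2 values of Igfbp4, Igfbp7 and Igfbp6 and the mean of 15 mesenchyme and fibroblast genes on each of the 6 arrays, each less the mean of the 3 controls, with Prox1-OE arrays on the left. Igfbp4, Igfbp7 and the list are all highest on Prox1-OE replicate 1 and above 0 on control replicate 1, whereas Igfbp6 is lowest on control replicate 1.

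Genes of mesenchyme and fibroblasts were, like Igfbp4, highest on Prox1-OE replicate 1 and lowest on control replicate 2. Relative to the control mean, the list averaged 0.49, 0.04 and 0.13 on the Prox1-OE arrays, and 0.12, -0.15 and 0.03 on the control arrays. Its summed level on the log2 scale ran from 14.12 to 14.57 in Prox1-OE and from 13.90 to 14.19 in control. Of the 15 measured genes, 14 had a positive difference, against 46.2% of all genes, 2 had an unadjusted limma p under 0.05 (13.3%, against 6.72% of all genes), 0 passed and 0 were dim. In whole tissue, a change in the number of cells of a type cannot be told apart from a change in RNA per cell. The part of this tissue in the values of Igfbp4 and Igfbp7 was not tested. Macrophage genes were also highest on Prox1-OE replicate 1, at 1.08, 0.41 and 0.44 over the control mean in Prox1-OE against 0.19, -0.01 and -0.18 in control, with 9 of 10 positive and 8 of 10 at an unadjusted limma p under 0.05, but 0 past the threshold. Smooth muscle and pericyte genes averaged 0.42, -0.05 and -0.09 in Prox1-OE against 0.15, -0.02 and -0.13 in control, with 5 of 8 positive and 0 at such a p. Prox1-OE replicate 1 also read highest for B cell (1.19), delta and PP cell (1.02) and lymphatic endothelial genes (0.90), against 0.13 to 0.46 in Prox1-OE replicates 2 and 3 and -0.14 to 0.26 among the controls. Delta and PP cell genes averaged 0.26, -0.12 and -0.14 on the control arrays. Adipocyte genes were highest on that Prox1-OE array too, at 0.54, 0.45 and -0.27 in Prox1-OE against 0.15, 0.12 and -0.27 in control. Of 7 B cell genes, 4 were positive, 5 were dim and 0 passed, with a median difference of 0.04. An unadjusted limma p under 0.05 was reached by 2 of them (28.6%). Ms4a1 (2.26) and Ighm (1.44) differed most. Of 5 delta and PP cell genes, 5 were positive, 2 had such a p (40%) and 1 passed, Rbp4 (limma adjusted p = 0.0342). Of 5 lymphatic endothelial genes, 5 were positive, 2 had such a p (40%) and 0 passed. The gene list for blood endothelium, another site of Igfbp7, did not follow the same order, with means over control of 0.18, -0.04 and 0.05 in Prox1-OE against 0.21, 0.11 and -0.33 in control.

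The promoters of Igfbp4 and Igfbp7 are shown because the values of these genes varied together over the arrays. Each sequence holds the 250 bases before the transcript start from RefSeq (GRCm38.p6), 5′ to 3′ on the strand of the gene, with matches to TATAAA or GGGCGG on either strand in capitals.
Igfbp4: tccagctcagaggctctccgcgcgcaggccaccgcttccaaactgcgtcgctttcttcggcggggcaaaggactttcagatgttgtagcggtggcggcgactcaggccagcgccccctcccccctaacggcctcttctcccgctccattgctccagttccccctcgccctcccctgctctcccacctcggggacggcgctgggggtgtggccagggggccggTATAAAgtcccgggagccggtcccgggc
Igfbp7: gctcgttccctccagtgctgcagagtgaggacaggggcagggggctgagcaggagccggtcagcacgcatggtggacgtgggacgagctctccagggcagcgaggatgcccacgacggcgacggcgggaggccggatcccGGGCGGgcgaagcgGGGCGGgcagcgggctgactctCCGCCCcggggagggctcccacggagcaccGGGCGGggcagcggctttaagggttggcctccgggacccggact
The Igfbp4 window lies at chr11:99040994-99041243 on the plus strand and the Igfbp7 window at chr5:77408046-77408295 on the minus strand. Igfbp4 has 1 TATAAA match, with its first base at position -28 from the start, and 0 GGGCGG matches. Igfbp7 has 0 TATAAA and 4 GGGCGG matches, of which 1 is on the opposite strand. Of 32851 such windows in RefSeq, 12.4% hold TATAAA and 32.7% hold GGGCGG. RefSeq gave windows for all 10 members, 14 in all, of which 2 hold TATAAA and 6 hold GGGCGG. The motifs overlap nowhere in the printed windows, and neither CCAAT nor CACGTG occurs in them.

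Probe sets of the same gene did not always go the same way. Of 6 Igfbp4 probe sets, 5 had a positive difference, from 0.17 to 0.41, and 1 differed by -0.18. The largest was 1423756_s_at, at 9.26, 8.75 and 8.81 on the Prox1-OE arrays, against 8.79, 8.35 and 8.45 on the control arrays. It had the smallest p of the family (0.41 ± 0.17 SE, limma unadjusted p = 0.0356, adjusted p = 0.801). Its lowest Prox1-OE value lay just under the highest control, and without Prox1-OE replicate 1 the difference was 0.25. The exception, 1421991_a_at, read 5.60, 5.55 and 5.61 on the Prox1-OE arrays, against 5.66, 5.87 and 5.77 on the control arrays, so its groups did not overlap in the other direction.

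Igfbp7 was split likewise. The probe set 1423585_at read 4.98, 4.78 and 4.65 in Prox1-OE, against 4.74, 4.30 and 4.40 in control, a difference of 0.33 ± 0.14 (SE, limma unadjusted p = 0.0432, adjusted p = 0.801). It shared the direction of the brightest probe set. The third, 1437804_at, read 5.94, 5.93 and 6.03 in Prox1-OE, against 6.37, 6.18 and 6.08 in control, a difference of -0.25 ± 0.10 (SE, limma unadjusted p = 0.0404, adjusted p = 0.801). Its groups did not overlap, and the annotation names Igfbp7 alone for all 3. Which part of the transcript each probe set reads is not given in the sources used here.

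**Figure D3:**
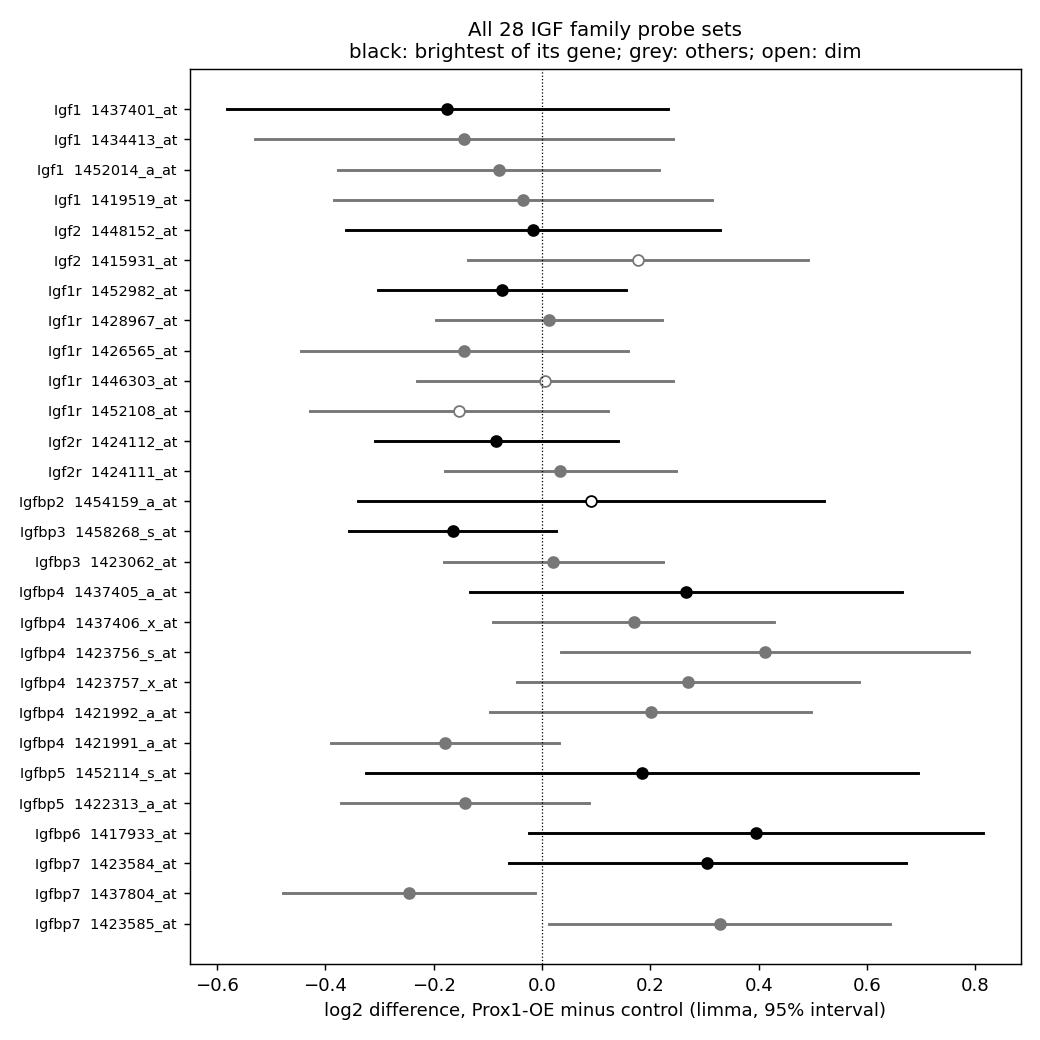
Log2 differences (Prox1-OE minus control, limma) of all 28 IGF family probe sets with 95% intervals, black for the brightest of each gene, grey for others and open for the 4 dim ones. The points lie between -0.25 and 0.41. Igfbp4 and Igfbp7 each have a probe set on the opposite side of 0 from the rest. Probe sets of Igf2, Igf1r, Igf2r, Igfbp3 and Igfbp5 also lie on both sides, whereas those of Igf1 are all negative.

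Genes downstream of the receptors were likewise without a call. Of 28 measured genes of insulin and IGF receptor signalling, 0 passed and 0 had an unadjusted limma p under 0.05, against 6.72% of all genes. The median difference was 0.02, against -0.01 for all genes, and the members ran from -0.19 to 0.17. The smallest p values belonged to Akt1, a kinase that carries the growth signal (-0.19 ± 0.11 SE, limma adjusted p = 0.821), and Pik3ca, the catalytic subunit of PI3 kinase (0.17 ± 0.10 SE, adjusted p = 0.822). Tsc2, a brake on mTOR, differed by -0.15, and Pik3r2, a regulatory subunit of PI3 kinase, by -0.13.

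Of 10 measured genes for other IGF carriers, proteases and mRNA binding proteins, 0 passed and 1 had an unadjusted limma p under 0.05 (10%, against 6.72% of all genes). Htra1, a secreted serine protease that cleaves IGF binding proteins, read 7.73, 7.53 and 7.70 on the Prox1-OE arrays, against 7.54, 7.18 and 7.27 on the control arrays. Its highest control just exceeded its lowest Prox1-OE value, and the difference was 0.33 ± 0.12 (SE, limma adjusted p = 0.781). Igfbpl1, a protein related to the binding proteins, differed by -0.19, the calcium-regulating hormone gene Stc1, whose product inhibits the protease of IGFBP-4, by 0.20, and Igf2bp1, an mRNA binding protein, by -0.23. Stc1 was dim.

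In the growth hormone axis, which drives Igf1 in many tissues, 2 of 7 measured genes had an unadjusted limma p under 0.05 (28.6%, against 6.72% of all genes) and 0 passed. Both are feedback inhibitors that STAT5 induces. Cish read 7.27, 7.25 and 7.35 on the Prox1-OE arrays, against 7.53, 7.42 and 8.02 on the control arrays, a difference of -0.37 ± 0.15 (SE, limma adjusted p = 0.801). Socs2 read 7.51, 7.47 and 7.50 on the Prox1-OE arrays, against 8.03, 7.63 and 7.67 on the control arrays, a difference of -0.28 ± 0.12 (SE, adjusted p = 0.801). The groups overlapped for neither gene, as for 12.1% of all genes, and 1 control array lay well above the other 2 in each: replicate 3 for Cish and replicate 1 for Socs2. Of the rest, Socs3, a further inhibitor of cytokine signalling, differed by 0.33 and the kinase gene Jak2 by 0.17.

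Igf2 belongs to a group of imprinted genes that act on growth and are high before birth. Of 8 other such genes measured, 0 passed and 1 had an unadjusted limma p under 0.05 (12.5%, against 6.72% of all genes). Plagl1, a zinc finger transcription factor, read 9.90, 9.55 and 9.91 on the Prox1-OE arrays, against 10.20, 10.04 and 10.38 on the control arrays. The groups did not overlap, and the difference was -0.41 ± 0.13 (SE, limma adjusted p = 0.777). Phlda2, which restrains placental growth, differed by -0.14 and was dim, Peg3, a zinc finger gene, differed by -0.12, and Mest by 0.11.

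**Figure D4:**
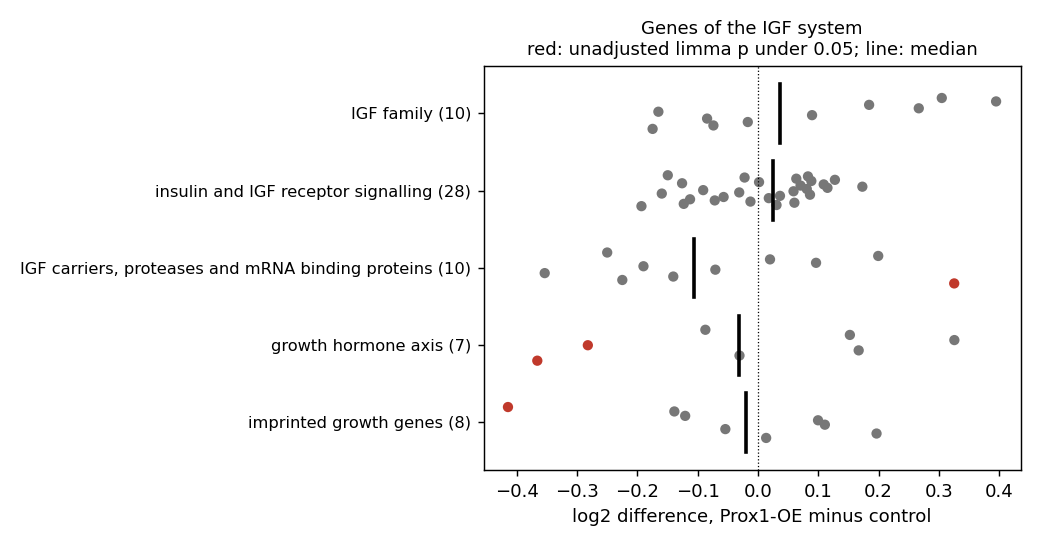
Log2 differences (Prox1-OE minus control) of single genes, each by its brightest probe set, in the IGF family and in 4 lists of related genes, with the median of each list as a black line and unadjusted limma p under 0.05 in red. The 5 medians lie between -0.11 and 0.04, and the red points are Htra1, Cish, Socs2 and Plagl1.

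The genes nearest in pattern were taken from 11480 genes above the dim limit by Pearson's r over the 6 arrays, a description in which the best of many candidates is always high. Igf1 was nearest to Sox10 (r = 0.982), Gnas (0.979) and Dixdc1 (0.978). Igf2 was nearest to Tipin (r = 0.999), Pts (0.996) and Skil (0.988). The Igfbp4 probe set 1423756_s_at was nearest to Gmfb (r = 0.998), Col3a1 (0.993), a fibrillar collagen gene of the mesenchyme list, and Fam219b (0.992).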

How the data were processed

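The authors deposited log2 probe set summaries of 6 one-colour arrays. Per the submitters' processing notes, RMA and Partek 6.5 were used, with no settings given. RMA forces the arrays to share a distribution and compresses differences of dim probe sets. Of 45101 probe sets, 64 Affymetrix controls were left out. A single symbol was annotated for 34958 probe sets, several for 932 and none for 9211, and genes were named only from single symbols. All 45037 remaining probe sets were compared by genotype with lmFit and eBayes (limma 3.58.1, R 4.3.3), two-sided, with no covariate or filter and Benjamini-Hochberg adjustment over all of them at 0.05. Intervals are limma's 95% intervals. A probe set with a mean under the median of all (4.39) is called dim. For lists, the brightest probe set stood for a gene.

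The fit was tested on simulated data, where it recovered nearly all of the larger changes and missed most of the smallest size tried, which still exceeded every member difference. False calls ran above the nominal share. The simulated noise was independent between arrays, with no array set apart as Prox1-OE replicate 1 is here. In the measured data large differences did not always pass. Ms4a1 (2.26) and Ctss (1.50) each had a limma adjusted p of 0.772, whereas Rbp4 (1.43) passed at 0.0342. Recovery in the simulation is thus not a measure of what these arrays would detect. The members, the gene lists and the named genes (up to 4 per list by p, and the 3 nearest in pattern), were chosen by rule with earlier results of these data known. Precision is limited by the 3 arrays of each group. RefSeq (GRCm38.p6) served for promoters and gene order. No source used here names the build behind the array, and probe set coordinates are therefore not printed. Alternatives were 1 probe set per gene, a filter on dim probe sets, other normalizations, trend and robust moderation, array weights, a replicate block and leaving out each array.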

Additional observations from a re-analysis of the deposited data

How the results depend on the processing

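No member probe set passed under any of the 13 alternatives. Leaving out 1 array gave 0 member calls, 0 to 4 member probe sets with an unadjusted limma p under 0.05 (3 with all arrays) and 0 to 8 calls over all probe sets (5 with all arrays): 0 without any one Prox1-OE array, 1 without control replicate 1 or 2, and 8 without control replicate 3. With 1 probe set per gene, 0 members had an unadjusted p under 0.05. The labels do not say whether replicate numbers pair the samples, and the main fit did not pair them. Deviations of same-numbered arrays from their group means correlated at 0.06, 0.17 and 0.10, and 6 of 6 arrays correlated best with their own number. With a replicate block, 2 probe sets passed over all and 6 of the 28 had an unadjusted p under 0.05, against 6.95% of all probe sets in that fit. The 6 were probe sets of Igfbp4, Igfbp6 and Igfbp7 with positive differences. The smallest unadjusted limma p in that fit was 0.0033, for 1423756_s_at of Igfbp4. Of 129 values of the 10 brightest probe sets under the alternatives, 123 kept their direction and 6 reversed, in 3 genes. Taking 1 probe set per gene, the filter, trend and robust moderation and the replicate block leave each difference unchanged by construction. The 123 thus include values that could not reverse. Igf2 was 0.0016 with median centring, 0.028 with array weights and -0.12 to 0.17 without any one array. Igfbp5 ran from -0.052 to 0.43 and Igfbp2 from -0.12 to 0.29 without any one array. The filter on dim probe sets removed Igfbp2. The lowest adjusted p of the 10 was 0.676. The 3′ over 5′ excess differed between Prox1-OE and control by -0.014 with both control genes, 0.041 with Gapdh alone and -0.069 with beta-actin alone. The causes were not tested.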

Other observations

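A probe set that the annotation assigns to both Igf2r and Airn, the antisense RNA of the imprinted Igf2r region, was not counted among the members because it has several symbols. It was dim, at 3.45, 3.89 and 3.78 on the Prox1-OE arrays, against 4.002, 3.69 and 3.56 on the control arrays, with a log2 difference of -0.04.

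Igfbp1, a binding protein made mainly by liver and the neighbour of Igfbp3 in RefSeq, was dim and read 3.12, 3.04 and 3.08 on the Prox1-OE arrays, against 2.95, 3.34 and 3.16 on the control arrays. Igfals, which joins IGF-I and IGFBP-3 in the circulating complex, read 4.74, 5.30 and 5.65 on the Prox1-OE arrays, against 5.57, 5.64 and 5.55 on the control arrays, with Prox1-OE replicate 1 lowest. Ghr, the growth hormone receptor, read 9.57, 9.71 and 9.64 on the Prox1-OE arrays, against 9.48, 9.58 and 9.95 on the control arrays. These 3 genes were chosen after their values were seen.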
